A study of Mus musculus with 12 samples.

Results

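The 8 genes Zeb1, Zeb2, Snai1, Snai2, Twist1, Twist2, Prrx1 and Prrx2 encode transcription factors of the epithelial-to-mesenchymal transition (EMT). They were taken by symbol from tables of 20325 genes, and all 8 were among the 13936 genes with enough counts to be tested. These factors turn on a mesenchymal program and turn off an epithelial one, and fibroblasts, which are mesenchymal cells, express them in high amounts. Reprogramming of fibroblasts to pluripotency is known to pass through the opposite change, a mesenchymal-to-epithelial transition. Zeb and Snai proteins are zinc finger repressors that bind E-boxes in the promoters of epithelial genes such as Cdh1. Twist proteins are basic helix-loop-helix factors that pair with E proteins, and Prrx proteins are paired-related homeobox factors of limb and craniofacial mesenchyme.

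The study sequenced RNA of 12 libraries in 6 groups of 2: mouse embryonic fibroblasts (MEFs), and cultures at day 4 of their reprogramming. Every group carried AF10 fl/fl (both copies of Mllt10, which encodes AF10, floxed; AF10 binds the histone H3 lysine 79 methyltransferase DOT1L), OSKM (the reprogramming factors) and rtTA. MEF_fl and MEF_creAF10 were the MEFs, and fl in a name stands for the empty adenovirus and creAF10 for an adenovirus in which the CMV promoter drives Cre recombinase (called AF10-deleted below). Day4_fl_DMSO, Day4_creAF10_DMSO, Day4_fl_SGC and Day4_creAF10_SGC had been given 2 µg/mL doxycycline from 2 days after the virus, with vehicle (DMSO) or with 5 µM SGC0946, an inhibitor of DOT1L. Cells without floxed alleles given Cre virus are not analysed here, so an effect of AF10 deletion and one of Cre cannot be told apart. Day 4 cells differed from MEFs not only in doxycycline but also in medium (a stem cell medium with LIF), and they grew on gelatin and DR4 feeder MEFs, so RNA of feeder and reprogramming cells cannot be told apart.

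The libraries held 14602536 to 22800753 expected counts. Replicates 1 and 2 came from 2 cell sources of different sex, as Y-linked genes showed, and both ran through all 6 groups. The labels do not say how the replicates were prepared, so p-values measure the spread between these libraries. The level of Mllt10 in an AF10-deleted library was 72.1% to 82.1% of that in its fl partner, but which part of the gene the Cre deletes is not stated in the sources used here, so this does not check the labels. Levels are given as CPM (counts scaled to library size, with TMM factors), replicate 1 before replicate 2, and are used to compare libraries. Levels of different genes are compared in TPM (transcripts per a fixed total), which takes transcript length into account. Changes are log2 fold changes ± SE from edgeR's quasi-likelihood test over the 12 libraries, with n = 2 libraries per group, and a gene was counted as called at a Benjamini-Hochberg adjusted p under 0.05. A paired fit, blocked on replicate number within MEFs and within day 4, is quoted where it changed a call and beside some other results.

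The core E-box that Zeb and Snai proteins bind is CACCTG, which reads CAGGTG on the other strand. RefSeq promoter windows (GRCm38.p6, 250 bases before to 50 after a gene's start, 300 in all) were searched for it on both strands. It occurred in 22.6% of 27025 genes with such a window, or in 20.2% of 32851 windows. Of 30 epithelial genes known as targets of Zeb and Snai repression, 20 had a window and 18 of these (90%) held the motif. Cdh1 was among those without a window. Of 26 mesenchymal genes 14 had a window, and 1 of these (7.14%) held the motif. Windows were at hand for 6 of the 8 EMT factors, and 1 of them, Snai1, held it. The window of Spint1, an epithelial gene that also appears below, held 0 matches. Shown here, as examples with matches, are the 250 bases upstream of Snai1 and of Epcam and Spint2, a pair of epithelial genes whose levels appear below, with the motif in capitals. They lie on chr2:167537945-167538194 (plus strand), chr17:87635729-87635978 (plus strand) and chr7:29281978-29282227 (minus strand).
Snai1: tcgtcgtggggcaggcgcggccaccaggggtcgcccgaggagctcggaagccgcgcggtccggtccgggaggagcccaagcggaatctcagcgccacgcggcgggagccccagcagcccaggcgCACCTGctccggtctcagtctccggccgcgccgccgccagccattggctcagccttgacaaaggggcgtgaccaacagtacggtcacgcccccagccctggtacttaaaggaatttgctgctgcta
Epcam: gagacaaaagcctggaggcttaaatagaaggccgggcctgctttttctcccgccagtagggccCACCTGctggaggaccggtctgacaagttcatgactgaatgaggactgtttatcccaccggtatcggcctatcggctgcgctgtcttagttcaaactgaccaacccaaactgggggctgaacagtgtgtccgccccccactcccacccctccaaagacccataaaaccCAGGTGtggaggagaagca
Spint2: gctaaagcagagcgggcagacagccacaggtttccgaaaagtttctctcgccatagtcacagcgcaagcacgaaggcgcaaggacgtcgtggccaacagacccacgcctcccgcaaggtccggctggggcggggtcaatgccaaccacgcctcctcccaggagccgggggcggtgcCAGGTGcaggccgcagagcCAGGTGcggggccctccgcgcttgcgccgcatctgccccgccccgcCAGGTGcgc
The motif began at position -126 from the start in Snai1, at -187 and -19 in Epcam and at -74, -55 and -9 in Spint2. A match describes these letters only and does not show that a factor was bound there.

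All 8 factors stood lower on day 4 than in MEFs, by amounts that differed widely. For each of the 8, every one of the 4 MEF libraries lay above every one of the 8 day 4 libraries, a pattern that 26.9% of all genes tested showed in this direction. In fl cells 7 of 8 were called lower and 0 higher, where 26.3% of all genes tested were called lower and 25.7% higher. The median change of the 8 was -1.17, against 0.01 over all genes tested. Only Zeb1 missed the threshold in this fit. In these bulk samples, fewer cells that express a gene and less RNA per cell cannot be told apart.

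**Figure D1:**
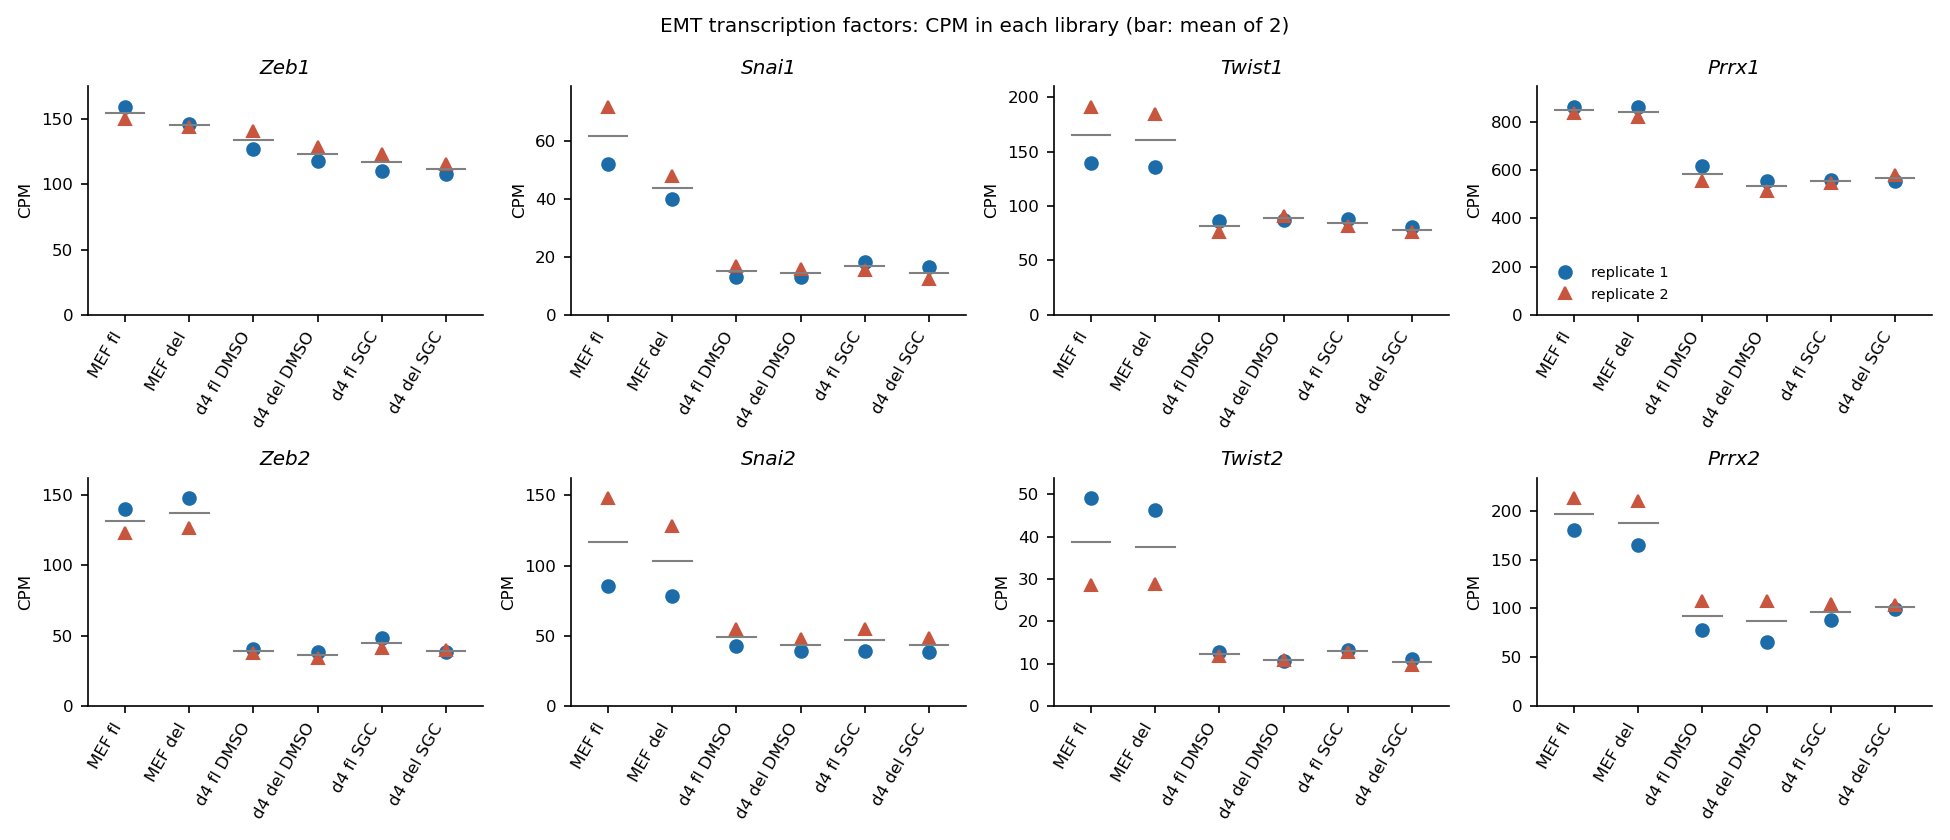
CPM of each of the 8 genes (y axes, linear from 0) in the 12 libraries, by group on the x axis (del, AF10-deleted; d4, day 4; SGC, SGC0946). Circles are replicate 1, triangles replicate 2 and grey bars the mean of 2; in every panel the 4 MEF libraries sit above the 8 day 4 libraries, by little for Zeb1 (144 against 141 CPM at the nearest) and by much for Zeb2 (123 against 48.4).

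The Zeb pair parted. Zeb1 stood at 159.6 and 150.2 CPM in MEF_fl and 147 and 144 in MEF_creAF10, and on day 4 at 127 and 141 in Day4_fl_DMSO, 118 and 128 in Day4_creAF10_DMSO, 110.1 and 124 in Day4_fl_SGC and 108 and 116 in Day4_creAF10_SGC. It kept 86.7% of its MEF level in fl cells, the highest share of the 8 factors. Its change was -0.21 ± 0.087 (95% interval -0.40 to -0.01, adjusted p = 0.0707), and -0.33 and -0.09 within replicates 1 and 2. Zeb1 was called with the replicate number as a block (adjusted p = 0.0392) and in the paired fit (-0.21 ± 0.064, adjusted p = 0.00579), where 8 of 8 factors were called lower beside 34.3% of all genes tested. For day 4 against MEFs the p of the paired fit does not measure how alike the sources responded. Zeb2, the relative with the same zinc finger and homeobox layout, went from 139.9 and 123 CPM in MEF_fl and 148 and 127 in MEF_creAF10 to 41.0 and 37.9 in Day4_fl_DMSO, 38.8 and 34.5 in Day4_creAF10_DMSO, 48.4 and 41.2 in Day4_fl_SGC and 38.2 and 39.8 in Day4_creAF10_SGC. The MEF and day 4 libraries were far apart. Zeb2 fell (-1.74 ± 0.12, adjusted p = 2.85e-06) and kept 30.0% of its MEF level. The library kit named in the labels does not mark strand, so reads of Zeb2 and of its antisense partner cannot be told apart.

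Snai1, a repressor of Cdh1 that acts early in EMT, fell furthest of the 8 in fl cells. It stood at 51.8 and 71.7 CPM in MEF_fl and 39.7 and 47.7 in MEF_creAF10, and at 13.1 and 16.7 in Day4_fl_DMSO, 12.9 and 15.8 in Day4_creAF10_DMSO, 18.2 and 15.4 in Day4_fl_SGC and 16.4 and 12.5 in Day4_creAF10_SGC. The change in fl cells was -2.05 ± 0.21 (adjusted p = 5.26e-05), which left 24.2% of the MEF level. Snai2 (Slug), its relative in neural crest and mesenchyme, differed most between the cell sources in MEFs. It had 85.2 and 148 CPM in MEF_fl and 78.3 and 129 in MEF_creAF10, against 42.7 and 55.3 in Day4_fl_DMSO, 39.6 and 47.5 in Day4_creAF10_DMSO, 39.3 and 55.2 in Day4_fl_SGC and 38.6 and 48.7 in Day4_creAF10_SGC. Both MEF replicates 2 were well above both MEF replicates 1, and both remained above all day 4 libraries. Snai2 fell (-1.25 ± 0.33, adjusted p = 0.0131), by 1.00 within replicate 1 and by 1.42 within replicate 2. The call was lost without single libraries: the adjusted p was 0.0856 without MEF_fl replicate 2 (change -0.80) and 0.0859 without Day4_fl_DMSO replicate 1 (-1.08).

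Twist1, a factor of mesoderm and cranial mesenchyme, stood at 139.5 and 191 CPM in MEF_fl and 136 and 185 in MEF_creAF10. Day 4 levels were 86.5 and 76.2 CPM in Day4_fl_DMSO, 87.1 and 90.8 in Day4_creAF10_DMSO, 87.6 and 81.6 in Day4_fl_SGC and 80.4 and 76.0 in Day4_creAF10_SGC. The day 4 libraries lay within a narrow band although the MEF sources differed, and Twist1 fell (-1.02 ± 0.17, adjusted p = 0.000876). Twist2 (Dermo1), known from dermis, went from 49.0 and 28.6 CPM in MEF_fl and 46.1 and 28.9 in MEF_creAF10 to 12.8 and 11.7 in Day4_fl_DMSO, 10.8 and 11 in Day4_creAF10_DMSO, 13.2 and 12.8 in Day4_fl_SGC and 11 and 9.69 in Day4_creAF10_SGC. Here replicate 1 was the higher source in MEFs, the reverse of Twist1. Twist2 fell (-1.67 ± 0.27, adjusted p = 0.000813) to 31.5% of its MEF level, while Twist1 kept 49.2%.

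Prrx1, which marks limb and connective tissue mesenchyme, went from 862 and 839.8 CPM in MEF_fl and 864 and 820.3 in MEF_creAF10 to 619.8 and 554 in Day4_fl_DMSO, 555 and 514 in Day4_creAF10_DMSO, 561 and 549.5 in Day4_fl_SGC and 555 and 579.5 in Day4_creAF10_SGC. The stages were separate, and the fall was small (-0.54 ± 0.086, adjusted p = 0.00067), so that 69.0% of the MEF level remained in fl cells. The deposited length of Prrx1, which RSEM weights over its 3 transcripts, was 4704 to 4745 bases in the 4 MEF libraries and 4795 to 4831 in the 8 day 4 libraries. The balance of its transcripts therefore differed between the stages in these estimates, with more weight on longer ones on day 4. Prrx2 had 179.9 and 213 CPM in MEF_fl and 165 and 209 in MEF_creAF10, and 78.0 and 107 in Day4_fl_DMSO, 66.0 and 108 in Day4_creAF10_DMSO, 87.9 and 105 in Day4_fl_SGC and 99.6 and 103 in Day4_creAF10_SGC. It fell to 47.2% of its MEF level (-1.08 ± 0.24, adjusted p = 0.00544).

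Markers of cell types moved with the stage beside the 8 factors. The summed CPM of 10 fibroblast markers was 38724 to 57245 in MEFs and 9956 to 11939 on day 4, and none of them was at 0. Of 14 macrophage and blood markers 13 were in the tables, with a sum of 7.04 to 15.2 in MEFs and 53.6 to 77.8 on day 4, of which Laptm5 alone had 36.1 to 57.5. The 8 endothelial markers summed to 25.3 to 31.1 and 92.3 to 135, of which Tek had 80.5 to 122 on day 4, while the defining Cdh5 stayed under 1 CPM and Tie1 or Emcn was at 0 in 4 groups. The 8 neural and glial markers summed to 54.1 to 73.1 in MEFs and 13.8 to 16.0 on day 4, and the 8 pluripotency markers to 0.237 to 1.08 and 53.9 to 71.9, nearly all of it L1td1 (up to 69.8). Keratinocyte (8 genes, 6.74 to 8.66 in MEFs and from 7.58 on day 4) and skeletal muscle markers (8 genes, 3.04 to 19.4) stayed under 20 CPM in sum. Zeb2, Snai2 and the Twist genes are also expressed in some of these cell types, and the part of these cells in the results was not tested.

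In AF10-deleted cells 8 of 8 factors were called lower on day 4 and 0 higher, beside 27.5% of all genes tested lower and 27.5% higher, with a median change of -1.18. Zeb1 was called here (-0.24 ± 0.087, adjusted p = 0.0398), but the adjusted p was 0.115 and 0.0847 without MEF_creAF10 replicate 1 or 2 and 0.212 and 0.0507 without Day4_creAF10_DMSO replicate 1 or 2. Zeb2 changed by -1.91 ± 0.12, Snai1 by -1.61 ± 0.21, Twist1 by -0.85 ± 0.17 and Twist2 by -1.78 ± 0.27. Prrx1 changed by -0.66 ± 0.087, Prrx2 by -1.11 ± 0.24 and Snai2 by -1.25 ± 0.33, the last with an adjusted p of 0.0875 without MEF_creAF10 replicate 2 (change -0.84) and 0.0768 without Day4_creAF10_DMSO replicate 1 (-1.13). Snai1 kept 32.8% of its MEF level in AF10-deleted cells and 24.2% in fl cells, and the remaining factors kept 26.7% (Zeb2) to 84.7% (Zeb1). The interaction of AF10 deletion with stage, which asks whether the day 4 change differed between the genotypes, called 0 of 8 factors and 0% of all genes tested. At an unadjusted p under 0.05 it had 507 genes in edgeR, 0 of them members, and DESeq2 called 2 genes. In the paired fit it called 0 of 8 factors and 1.16% of all genes. Snai1 had the largest interaction (0.44 ± 0.29 in the fit without pairing, 95% interval -0.22 to 1.10, adjusted p = 1), 0.36 and 0.51 within replicates 1 and 2. With pairing it was 0.43 ± 0.20 (0.01 to 0.85, unadjusted p = 0.0445, adjusted p = 0.36 in the paired fit). At an unadjusted p under 0.05 the paired fit had 1835 genes and 1 of the 8.

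**Figure D2:**
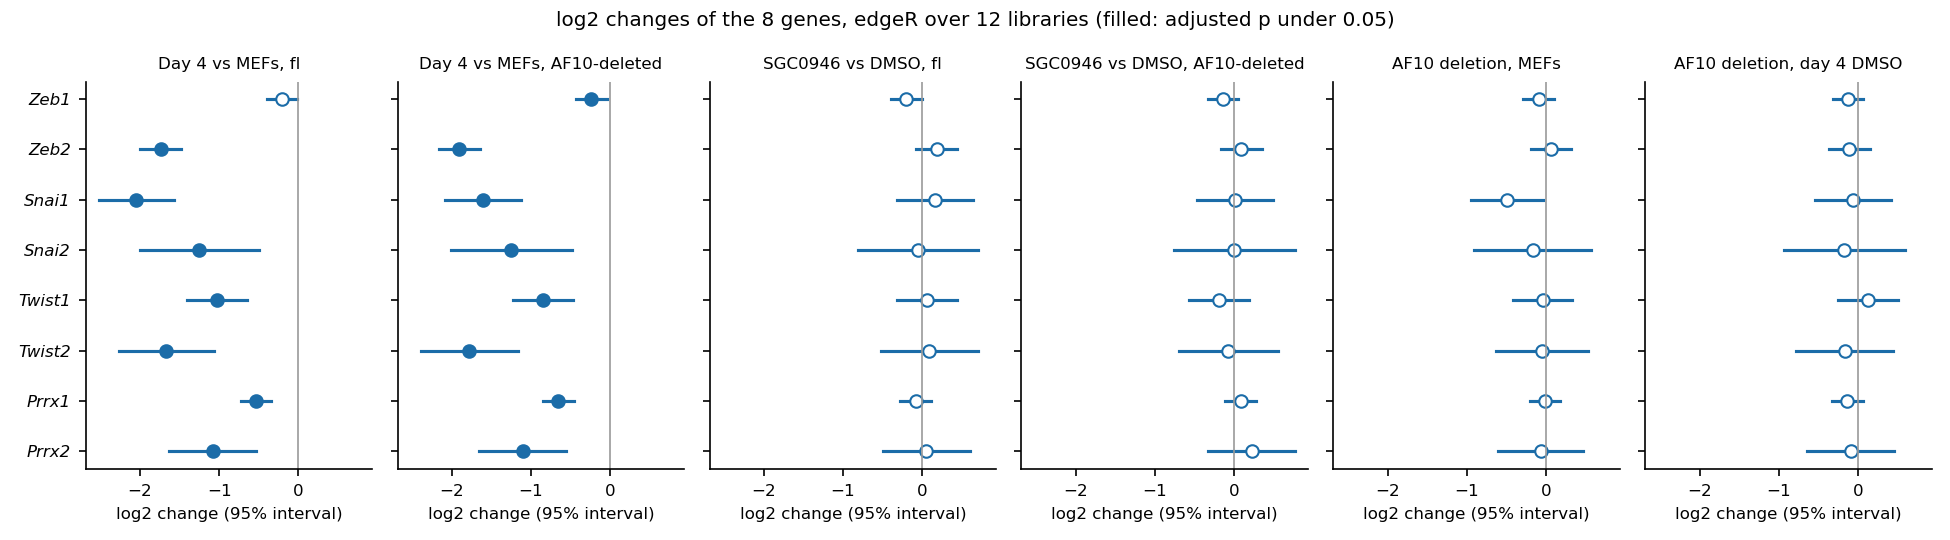
log2 changes of the 8 genes (y axis) in 6 comparisons, with 95% intervals of the fit without pairing as lines (x axis, log2 scale). Filled points have an adjusted p under 0.05 in edgeR; day 4 against MEFs has 7 filled of 8 in fl and 8 of 8 in AF10-deleted cells, and the SGC0946 and AF10 deletion panels have none.

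Per transcript length, the 8 factors covered a wide range of levels. In MEF_fl the mean TPM was 394 for Prrx2, 393 for Prrx1, 227 for Twist1, 129 for Snai2, 87.0 for Snai1, 66.2 for Twist2, 64.6 for Zeb1 and 31.2 for Zeb2. Prrx1 and Prrx2 did not differ beyond their spread (SD 2.24 and 55.2, n = 2), and neither did Snai1, Twist2 and Zeb1 (SD 21.7, 23.2 and 1.32). In Day4_fl_DMSO the order was Prrx1 (251), Prrx2 (176), Twist1 (105), Zeb1 (53.0), Snai2 (51.1), Snai1 (19.9), Twist2 (19.8) and Zeb2 (8.86). Zeb1 thus went from the seventh to the fourth place, level with Snai2 within the spread of both (SD 5.25 and 10.5), and Snai1 and Twist2 again did not differ beyond theirs (SD 3.91 and 0.672). The sum of the 8 was 1206 to 1504 TPM in the MEF libraries and 572 to 715 TPM on day 4, and Prrx1 and Prrx2 together made up 55.0% to 65.3% of it in every library.

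The balance of the 2 genes of a family differed most clearly between the stages for the Zeb pair. Zeb1 had 1.74 to 2.14 times the TPM of Zeb2 in the 4 MEF libraries and 3.98 to 6.54 times on day 4, with no overlap. The ratio of Twist1 to Twist2 depended on the source in MEFs, where it was 2.27 and 2.35 in replicate 1 of MEF_fl and MEF_creAF10 and 5.33 and 5.11 in replicate 2. On day 4 it was 5.07 to 6.59 in all 8 libraries, so the sources no longer stood apart. Snai2 over Snai1 was 1.29 to 2.11 in MEFs and 1.69 to 3.06 on day 4, which overlap. Prrx1 over Prrx2 was 0.906 to 1.20 in MEFs and 1.08 to 1.90 on day 4, which overlap too.

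**Figure D3:**
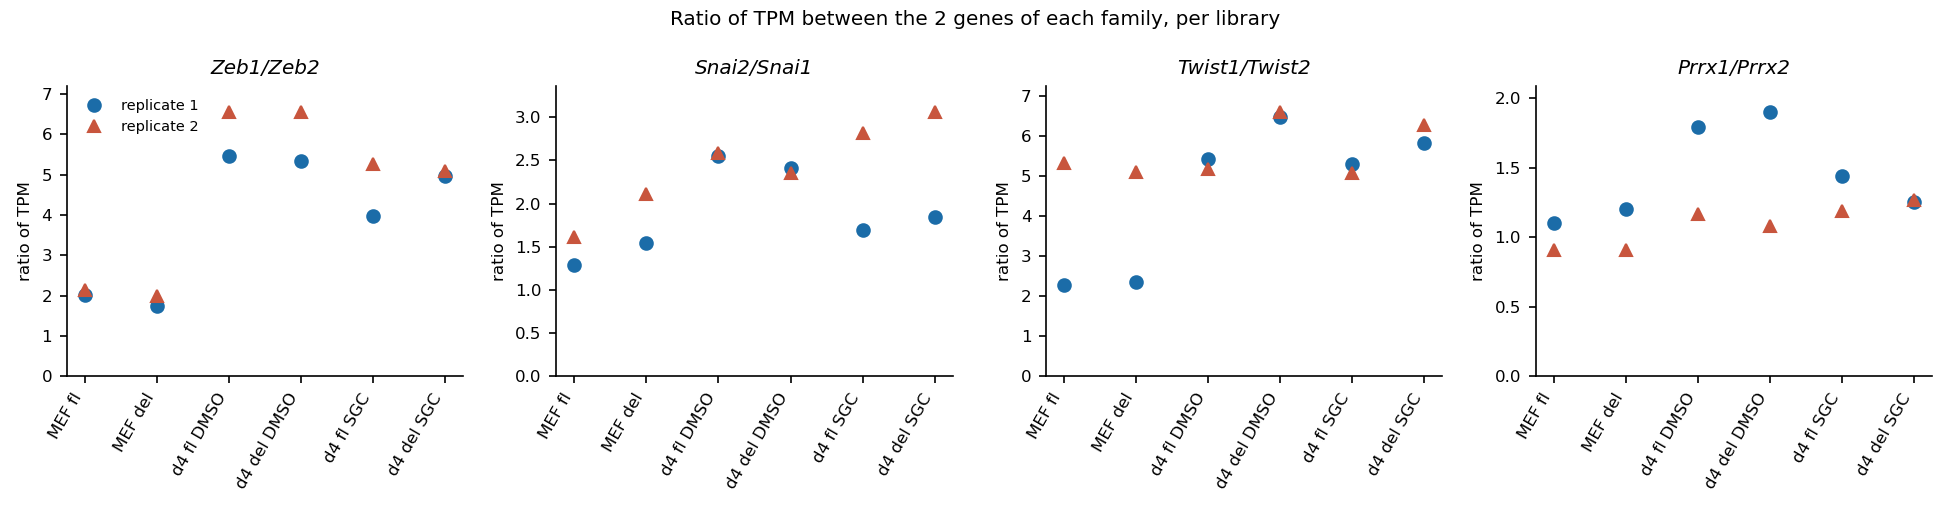
Ratio of TPM between the 2 genes of each family (y axes, linear from 0) in the 12 libraries by group (x axis; del, AF10-deleted; d4, day 4), with replicate 1 as circles and replicate 2 as triangles. The Zeb1 to Zeb2 ratio is 1.74 to 2.14 in MEFs and 3.98 to 6.54 on day 4, and the Twist1 to Twist2 ratio separates the replicates in MEFs only.

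The cell sources differed in MEFs for several factors. Snai2 was 1.74 and 1.64 times as high in replicate 2 as in replicate 1 of MEF_fl and MEF_creAF10, Twist1 was 1.37 and 1.36 times as high, and Twist2 stood at 0.584 and 0.626 of replicate 1. On day 4 the same ratio was 1.20 to 1.40 for Snai2, 0.881 to 1.04 for Twist1 and 0.880 to 1.02 for Twist2 over the 4 groups. It was 1.04 to 1.63 for Prrx2, the widest difference on day 4, and 0.760 to 1.28 for Snai1, whose higher source differed between groups. Zeb1 and Prrx1 were within 0.941 to 0.983 in MEFs and 0.894 to 1.12 on day 4. With 1 library per source and group these ratios have no error of their own.

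DOT1L inhibition on day 4 was compared with vehicle in each genotype. In fl cells the first fit (without pairing) called 0 of 8 between SGC0946 and DMSO, where 1.11% of all genes tested were called. Their changes lay between -0.20 ± 0.087 for Zeb1 and 0.19 ± 0.12 for Zeb2, with a median of 0.06 against -0.01 over all genes. The 95% interval was -0.39 to -0.01 for Zeb1, -0.07 to 0.44 for Zeb2, -0.27 to 0.11 for Prrx1 and -0.32 to 0.44 for Twist1. For the factors measured less precisely in this fit it was -0.31 to 0.64 (Snai1), -0.49 to 0.60 (Prrx2), -0.52 to 0.70 (Twist2) and -0.82 to 0.71 (Snai2). The paired fit gave -0.22 to 0.10 for Snai2 and 0.02 to 0.35 for Zeb2 (unadjusted p = 0.0312, adjusted p = 0.124). Zeb1 had the only unadjusted p under 0.05 in the first fit (0.045, adjusted p = 0.361). It was lower with SGC0946 in both sources, from 127 and 141 CPM to 110.1 and 124, or by 0.21 and 0.19 on the log2 scale. The paired fit called 1 of 8 factors lower, Zeb1 (-0.20 ± 0.065, adjusted p = 0.0317), and 0 higher, beside 7.1% of all genes lower and 10.6% higher. With the block over all libraries Zeb1 was not called (adjusted p = 0.19). DESeq2 called 303 genes and 0 of the 8.

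The same contrast in AF10-deleted cells called 0 of 8 factors and 0.00718% of all genes tested. The paired fit called 0 of 8, beside 2.47% of all genes lower and 5.28% higher. At an unadjusted p under 0.05 the first fit had 955 genes and 0 of the 8, and DESeq2 called 48 genes and 0 of the 8. The paired fit had 2864 genes and 2 of the 8 at an unadjusted p under 0.05, Zeb1 (0.0456) and Twist1 (0.0128). Zeb1 was again lower in both sources (-0.14 ± 0.087, 95% interval -0.33 to 0.06, adjusted p = 0.849; paired fit adjusted p = 0.23). Twist1 had -0.19 ± 0.17 (paired fit adjusted p = 0.107) and was lower in both sources, while in fl cells it had been higher in both (by 0.02 and 0.10). Prrx2 had 0.22 ± 0.24, with 0.59 in replicate 1 and -0.06 in replicate 2. Snai1 had 0.35 and -0.34 in the 2 replicates, so its mean near 0 covered opposite directions. In fl cells too Snai1 had gone in opposite directions, by 0.47 in replicate 1 and -0.12 in replicate 2. Whether the response depended on AF10 was tested as the interaction of AF10 deletion and SGC0946, which called 0 of 8 factors and 0% of all genes tested. It had 303 genes and 0 members at an unadjusted p under 0.05 in edgeR, DESeq2 called 2 genes, and the paired fit called 0 of 8 factors and 0.395% of all genes. The interaction was -0.24 ± 0.24 for Twist1 (95% interval -0.78 to 0.29, paired fit adjusted p = 0.352) and 0.17 ± 0.12 for Prrx1 (-0.11 to 0.44). With pairing Twist1 had -0.25 ± 0.10 (-0.45 to -0.04, unadjusted p = 0.0198 in the paired fit). At an unadjusted p under 0.05 the paired fit had 1445 genes and 1 of the 8.

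Deletion of AF10 called 0 of 8 factors in MEFs, where the first fit called 0% of all genes tested (300 at an unadjusted p under 0.05, and 20 genes but none of the 8 called by DESeq2). The paired fit called 0 of 8 and 0.962% of all genes. Snai1 had the largest change of the 8. It had 51.8 and 71.7 CPM in MEF_fl and 39.7 and 47.7 in MEF_creAF10, a change of -0.50 ± 0.20 (95% interval -0.95 to -0.04). Its unadjusted p was 0.0351 and its adjusted p was 1. Pairing gave -0.49 ± 0.12 (-0.75 to -0.23), with an unadjusted p of 0.00113 and an adjusted p of 0.101. Snai2 had -0.17 ± 0.070 in the paired fit (-0.31 to -0.02, unadjusted p = 0.0257, adjusted p = 0.599). At an unadjusted p under 0.05 the paired fit had 968 genes and 2 of the 8. For the factors other than Snai1 the intervals of the first fit were -0.28 to 0.10 (Zeb1), -0.19 to 0.31 (Zeb2), -0.21 to 0.18 (Prrx1) and -0.42 to 0.33 (Twist1). They were -0.61 to 0.47 for Prrx2, -0.63 to 0.53 for Twist2 and -0.91 to 0.57 for Snai2. The comparison shares its MEF libraries with the day 4 comparisons, in which the same MEF_fl values of Snai1 enter as the baseline.

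On day 4 in DMSO the deletion called 0 of 8 factors and 0% of all genes tested in the first fit (988 genes and 0 members at an unadjusted p under 0.05, 13 genes called by DESeq2). The paired fit called 0 of 8 factors beside 6.74% of all genes. The change was negative for 7 of the 8 and for 49.2% of all genes, and that of Snai1, Snai2 and Prrx2 turned positive when 1 library was left out. Zeb1 had -0.12 ± 0.087, Prrx1 -0.13 ± 0.086 and Snai2 -0.17 ± 0.33, with paired fit adjusted p of 0.28, 0.286 and 0.21. Twist1 had a positive change (0.13 ± 0.17). In SGC0946 it called 0 of 8 factors and 0% of all genes (251 genes and 0 members at an unadjusted p under 0.05, 2 called by DESeq2), and the paired fit called 0 of 8 and 0.172% of all genes. Twist2 had -0.33 ± 0.27 there (95% interval -0.95 to 0.29, paired fit adjusted p = 0.424) and Zeb2 -0.20 ± 0.12 (-0.46 to 0.06, paired fit adjusted p = 0.533). The intervals of the paired fit were -0.57 to -0.09 for Twist2 (unadjusted p = 0.00976) and -0.37 to -0.03 for Zeb2 (unadjusted p = 0.0214). At an unadjusted p under 0.05 that fit had 1081 genes and 2 of the 8 in SGC0946. In DMSO the interval of Snai2 was -0.93 to 0.59 in the first fit, which could not detect a change of moderate size for it. Pairing narrowed it to -0.33 to -0.01 (unadjusted p = 0.04 in the paired fit). At an unadjusted p under 0.05 the paired fit had 2943 genes and 1 of the 8 in DMSO.

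Other genes of the same network were followed through lists. Among 25 partners and related EMT regulators, all tested, 9 fell and 4 rose on day 4 in fl cells (median -0.16), beside 26.3% of all genes lower and 25.7% higher. In AF10-deleted cells 7 fell and 6 rose (median -0.15), beside 27.5% of all genes lower and 27.5% higher. The change was negative for 16 of the 25 in fl and also in AF10-deleted cells. In AF10-deleted cells the count that rose was smaller whichever library of MEF_creAF10 or Day4_creAF10_DMSO was left out. The count that fell there was smaller without either Day4_creAF10_DMSO replicate. Sox9, a factor of neural crest and cartilage, fell (-3.09 ± 0.24), as did Sox4 (-1.45 ± 0.092), a mediator of TGF-beta driven EMT, and Foxf2 (-1.54 ± 0.30), a forkhead factor of mesenchyme. Tcf4, an E protein that pairs with Twist, rose (0.53 ± 0.083) from 241 and 219 CPM in MEF_fl to 325 and 339 in Day4_fl_DMSO. In fl cells the count that fell was 5 without MEF_fl replicate 2 and 4 without Day4_fl_DMSO replicate 1. Of 13 corepressors and cofactors of Snai and Zeb proteins, 12 were tested. In fl cells 6 rose and 0 fell, beside 25.7% of all genes higher and 26.3% lower, and 6 of the 12 changes were negative (median 0.10). Those that rose included the Polycomb proteins Suz12 (0.80 ± 0.088) and Ezh2 (0.69 ± 0.094), the arginine methyltransferase Prmt5 (0.55 ± 0.088) and the lamin Lmnb1 (1.33 ± 0.16). Of 18 genes of the TGF-beta pathway, which induces Snai and Zeb genes, 11 fell and 1 rose in fl cells (median -0.82). Of all genes 26.3% were called lower there and 25.7% higher. The ligand Tgfb2 fell (-2.05 ± 0.16), and so did the co-receptor Tgfbr3 (-0.85 ± 0.084) and Ski (-0.88 ± 0.066), an inhibitor of Smad signalling. The gene that rose was Tgfbi (1.34 ± 0.14), a matrix protein that TGF-beta induces.

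The genes that EMT factors act on moved in both directions. Of 26 mesenchymal genes 21 fell on day 4 in fl cells and 1 rose (median -1.46). Beside these counts and those of the epithelial lists below, 26.3% of all genes tested were called lower in fl cells and 25.7% higher. The cross-linking enzyme Lox fell (-2.92 ± 0.12), as did the mesenchymal cadherin Cdh11 (-2.04 ± 0.089), Col5a2 (-2.22 ± 0.10) and the protease Mmp14 (-1.91 ± 0.099). The gene that rose was Vim (0.80 ± 0.12), an intermediate filament protein; it is named after its value was seen. Of 30 epithelial genes known to be repressed by Snai and Zeb proteins 22 passed the filter on low counts, which a gene could pass through the groups where it was high, and 13 of these rose and 0 fell (median 1.54). Cdh1 rose (4.17 ± 0.39), from 1.13 and 1.46 CPM in MEF_fl to 28.8 and 18.0 in Day4_fl_DMSO, and so did the protease inhibitor gene Spint2 (1.42 ± 0.19). Of 15 epithelial regulators 9 were tested, 5 rose and 1 fell, and the count that fell was 0 without MEF_fl replicate 1 and without either Day4_fl_DMSO replicate. Ehf, an ETS factor of epithelia, went from 0 and 0.0607 CPM in MEF_fl to 9.02 and 14.1 in Day4_fl_DMSO. As with the epithelial genes, a regulator could pass the filter through the groups where it was high, as Ehf did. Trp63 (1.92 ± 0.27), a factor of stratified epithelia, and Grhl3 (1.90 ± 0.41) rose as well. In AF10-deleted cells the counts on day 4 were 15 epithelial genes that rose and 0 that fell (median 1.74), 21 mesenchymal genes that fell and 1 that rose (-1.58), and 12 TGF-beta genes that fell and 1 that rose. Of all genes tested 27.5% were called lower there and 27.5% higher.

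**Figure D4:**
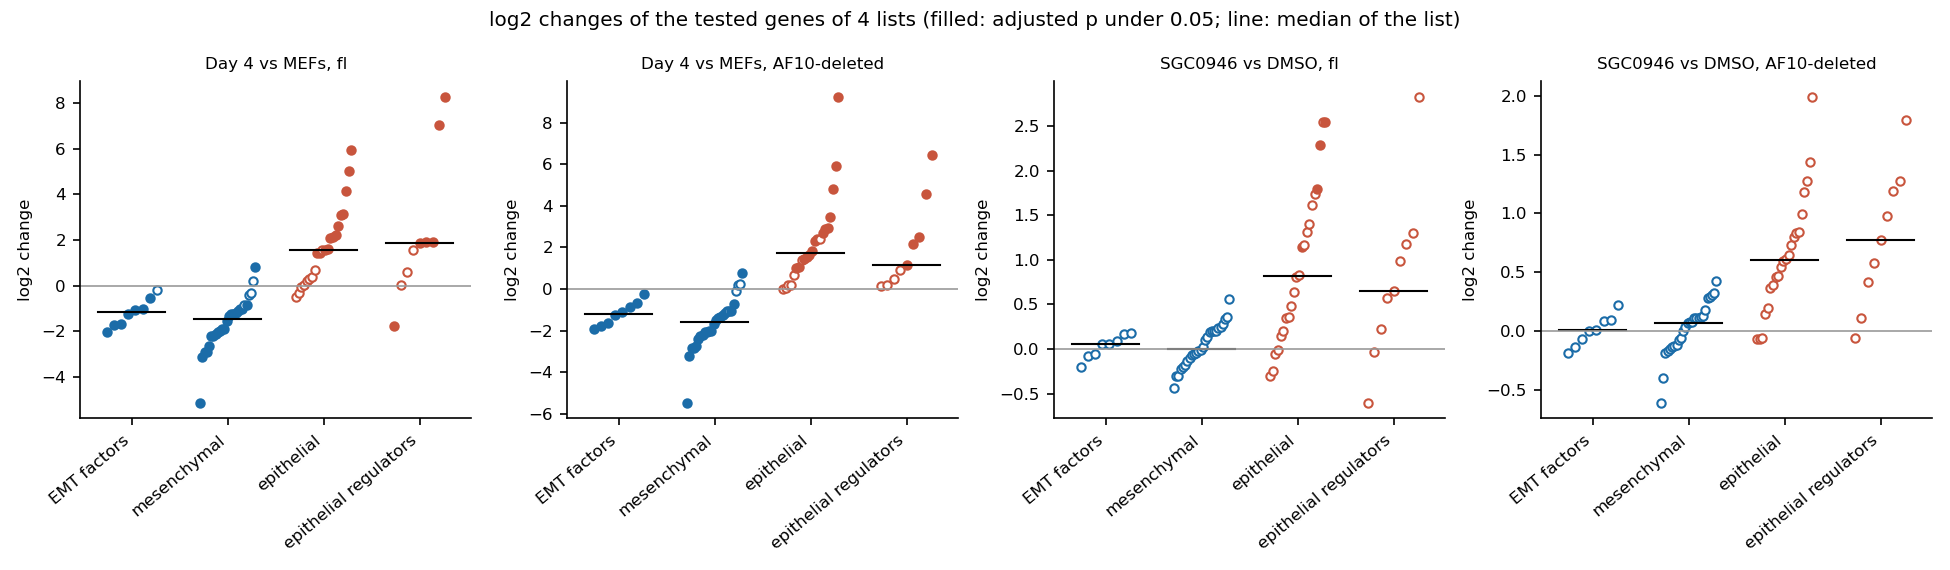
log2 changes (y axes, with a scale of their own in each panel) of the tested genes of 4 lists (x axes): the 8 EMT factors, 26 mesenchymal genes, 22 epithelial genes and 9 epithelial regulators. Filled points have an adjusted p under 0.05 in edgeR and black lines are medians; with SGC0946 in fl cells the median is 0.06 for the EMT factors and 0.82 for the epithelial genes.

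Some epithelial genes rose with SGC0946 on day 4, while of the 8 factors only Zeb1 was called, and only in the paired fit. In fl cells the first fit called 4 of 22 higher and 0 lower (median of the list 0.82), beside 1.11% of all genes in either direction. The 4 were Epcam (2.54 ± 0.41), an epithelial surface protein, the keratin Krt18 (2.28 ± 0.37), Spint1 (1.79 ± 0.25) and Spint2 (1.14 ± 0.17). Epcam had 0.460 and 0.642 CPM in Day4_fl_DMSO and 4.25 and 2.31 in Day4_fl_SGC, and Spint2 had 13.7 and 10.5 and 27.2 and 26.2. The count was 0 without Day4_fl_DMSO replicate 1 or 2 or without Day4_fl_SGC replicate 1 or 2, and it was 7 in DESeq2. The paired fit called 14 of 22 higher and 1 lower, beside 10.6% of all genes higher and 7.1% lower. Cdh1 had 1.43 ± 0.11 there and Lama5, a basement membrane laminin, 0.81 ± 0.075. In AF10-deleted cells 0 were called in the first fit, beside 0.00718% of all genes. There 13 rose in the paired fit (median 0.61), Cdh1 by 0.74 ± 0.10, beside 5.28% of all genes higher and 2.47% lower. Of the 26 mesenchymal genes the first fit called 0 with SGC0946 in either genotype. In fl cells the paired fit called 7 of them higher, among these Lox (0.56 ± 0.073), and 3 lower, beside 10.6% and 7.1% of all genes.

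The regulators around the factors passed the test with SGC0946 in the paired fit only. Of 25 partners 7 fell and 1 rose with SGC0946 in fl cells, beside 7.1% of all genes lower and 10.6% higher in that fit, among them Tcf4 (-0.30 ± 0.069) downward and Foxf2 (0.82 ± 0.24) upward. In AF10-deleted cells 2 partners fell and 1 rose, beside 2.47% and 5.28% of all genes. Ctbp2, the corepressor that Zeb proteins bind, fell (-0.37 ± 0.071), from 83.0 and 86.4 CPM in Day4_fl_DMSO to 65.3 and 66.2 in Day4_fl_SGC. It fell in AF10-deleted cells too (-0.24 ± 0.072, adjusted p = 0.0389). In the TGF-beta list 4 of 18 rose and 3 fell in fl cells, beside the same 10.6% and 7.1% of all genes. The ligands Tgfb1 and Tgfb3 had 0.87 ± 0.12 and 0.47 ± 0.072, and the receptor Tgfbr2 -0.38 ± 0.068. Upon AF10 deletion in DMSO on day 4 the paired fit called 6 of 22 epithelial genes higher, beside 6.74% of all genes in either direction. Among them were Spint1 (1.03 ± 0.17) and Cdh1 (0.71 ± 0.11). It also called 2 partners higher and 1 lower, Id1 (0.34 ± 0.073) and Id3 (0.30 ± 0.067), which hold E proteins away from Twist, and Etv5 (-0.24 ± 0.072), or 3 of 25, in a comparison where 6.74% of all genes were called. These comparisons share their DMSO libraries with the SGC0946 and the day 4 comparisons.

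Likeness to other genes was read from Pearson's r of log2 CPM (prior count 2) among 11119 genes with a mean of at least 5 CPM. The 12 libraries share the stages, and over them 242 genes had r over 0.9 with Zeb1 against 979 to 1917 for the other 7. Among the nearest were Dlc1 (0.975), Pccb and Pard3 for Zeb1, Vash2 (0.996), Adamts2 and Aspn for Zeb2, and Bsg (0.987) and Islr for Snai1. For Snai2 they were Fndc3a (0.998), Bambi and Gata2, for Twist1 Gm5595 (0.991), Cxcl12 and Uxs1, and for Twist2 Phgdh (0.995), Nid1 and Prss23. Prrx1 was nearest to Lamp2 (0.995) and Sec22b, and Prrx2 to Actg1 (0.991), Dusp18 and 6030419C18Rik. Within the 8 day 4 libraries, after each replicate number's mean was taken off, Zeb1 was nearest to Grb10 (0.994), Ctbp2 (0.994) and Ube2e2 (0.994), and 469 genes had r over 0.9. For the other 7 this count was 10 (Twist1) to 57 (Snai2), and the nearest genes were F2r for Zeb2, Copg for Snai1, Vcpip1 for Snai2, Rps6 for Twist1, Rrp12 for Twist2, Ier3ip1 for Prrx1 and Apob48r for Prrx2. Among the 8 factors themselves r lay between 0.745 and 0.982 over the 12 libraries and between -0.545 and 0.683 within day 4, and thus took both signs there. These are descriptions over libraries that share sources and depth.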

How the data were processed

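RNA-seq was analysed for 12 libraries in 6 groups. The authors deposited RSEM gene tables with expected counts and TPM per gene, per the file headers; the submitters' processing notes name RSEM, Bowtie and mm9, with versions not given in the sources used here. In 10 of the tables, 25 gene names had been turned into dates, and these genes were matched by transcript identifier. Deposited expected counts were rounded and tested with edgeR 4.0.16 in R 4.3.3 (filterByExpr, TMM, quasi-likelihood test, Benjamini-Hochberg adjustment over 13936 genes); DESeq2 1.42.0 was an alternative. The scripts were tested on simulated data. SE is the absolute log2 change over the root of F, with moderated degrees of freedom. Residual degrees of freedom were 6 (4 in the paired fit) and the biological coefficient of variation was 0.148 (0.0549).

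Same-numbered libraries deviated together: all 15 pairs of groups had correlations of 0.286 to 0.737, at least 0.413 within a stage and at most 0.340 across stages, and 4 Y-linked genes had 4035 to 4780 counts in replicate 1 and 8 to 52 in replicate 2. The numbers were therefore taken to pair the libraries. In the comparisons of day 4 with MEFs, blocking within stages takes the difference between the sources out of each stage, so its p does not measure how alike the sources responded.

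The 8 genes and all lists were chosen with earlier results of these data known. All 8 genes are named in each comparison, of each list up to 4 called genes with the lowest p, and for likeness the 3 genes with the highest r; some of these genes are not reported here. Promoter sequences are from RefSeq on GRCm38.p6, another build than that of the files.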

Additional observations from a re-analysis of the deposited data

How the results depend on the processing

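Between the first fit and the alternatives (DESeq2 size factors, DESeq2, no filter on low counts, and the replicate number as a block over all libraries or per stage) the 8 factors gave 360 values, of which 351 kept direction and call, 6 changed sign and 3 gained a call, all 3 for Zeb1. The changes of sign were in Snai2, whose value was near 0: with SGC0946 in AF10-deleted cells it was -0.0021 with DESeq2 size factors, -0.0034 without the filter and -0.0035 in DESeq2, and its interaction of AF10 deletion with stage was 0.0025, 0.0033 in DESeq2 and 0.0015 with the block over all libraries. With the block per stage 1 factor was called lower with SGC0946 in fl cells, and besides this call and that of Zeb1 on day 4 in fl cells, pairing changed no call of the 8. The alternatives to the scaling and the filter moved the median of all genes by -0.0139 to 0.0104. The block raised the number of all genes called: with SGC0946 in fl cells from 155 to 806 over all libraries and 2470 per stage (303 in DESeq2, and 1 to 5 with a library left out), in AF10-deleted cells from 1 to 93 and 1080 (48 in DESeq2, and 0 with a library left out), for AF10 deletion in MEFs from 0 to 6 and 134 (20) on day 4 in DMSO from 0 to 1 and 939 (13) and in SGC0946 from 0 to 0 and 24 (2), and for the interactions with SGC0946 and with stage from 0 to 55 and 161 per stage (2 each in DESeq2). With 1 library left out in turn 283 of 352 values kept direction and call, 8 lost the call and 61 changed sign, in 31 results that were not called; the cause was not tested. A group left with 1 library was assumed to vary like the others. The lowest and highest values of those results, and of 1 partner gene, follow. For SGC0946 against DMSO on day 4, fl they were -0.32 to 0.17 for Snai2, -0.040 to 0.15 for Twist1, -0.17 to 0.0014 for Prrx1 and -0.16 to 0.29 for Prrx2. For SGC0946 against DMSO on day 4, AF10-deleted they were -0.21 to 0.19 for Snai1, -0.17 to 0.16 for Snai2, -0.17 to 0.017 for Twist2 and -0.086 to 0.62 for Prrx2. For AF10 deletion in MEFs they were -0.050 to 0.17 for Zeb2, -0.58 to 0.28 for Snai2, -0.28 to 0.20 for Twist1, -0.43 to 0.38 for Twist2, -0.052 to 0.022 for Prrx1 and -0.25 to 0.093 for Prrx2. For AF10 deletion on day 4 in DMSO they were -0.22 to 0.12 for Snai1, -0.34 to 0.018 for Snai2, -0.49 to 0.21 for Prrx2 and -0.50 to 0.053 for Etv5. For AF10 deletion on day 4 in SGC0946 they were -0.14 to 0.024 for Zeb1, -0.34 to 0.15 for Snai2, -0.00028 to 0.059 for Prrx1 and -0.043 to 0.21 for Prrx2. For the interaction of AF10 deletion and SGC0946 they were -0.020 to 0.15 for Zeb1, -0.21 to 0.028 for Zeb2, -0.36 to 0.025 for Snai1, -0.17 to 0.32 for Snai2 and -0.14 to 0.57 for Prrx2. For the interaction of AF10 deletion and stage they were -0.11 to 0.030 for Zeb1, -0.45 to 0.40 for Snai2, -0.074 to 0.41 for Twist1, -0.55 to 0.26 for Twist2 and -0.42 to 0.28 for Prrx2. At these depths Twist2, with as few as 154 counts in a library, was the least deeply counted of the 8.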
